A study of Mus musculus with 6 samples.

Results

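Niche cytokines and chemokines and their receptors were followed in tissue from above and below the dorsal aorta of mouse embryos at embryonic day 10.5. The set held 9 listed genes, taken by platform gene symbol, of which 8 were found among the 24675 genes of the array table that had a symbol. These were 5 ligands (Kitl, Cxcl12, Flt3l, Il3 and Csf1) and 3 receptors (Kit, Cxcr4 and Flt3). Thpo, the ligand thrombopoietin, had no row under its symbol and was not analysed here.

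Both groups came from embryos of the C57Bl/6 strain, and the labels name no transgene, mutation or treatment. The dorsal group, 3 arrays, was tissue above the aortic roof, below the notochord. The ventral group, 3 arrays, was tissue beneath the aorta, and both were cut from frozen sections by laser microdissection. Per the labels, the regions share their embryos and each has 3 biological replicates, with no number of embryos per sample stated. Each sample entered amplification with 200 to 1000 pg of total RNA. Signals come from Affymetrix Mouse Gene 2.0 ST arrays and are given as log2 RMA values, so a difference of 1 is a 2-fold change in signal.

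These ligands and receptors form the best known signalling pairs between blood stem cells and their surroundings. Stem cell factor, encoded by Kitl, binds the receptor tyrosine kinase Kit and keeps haematopoietic stem cells, germ cells and melanocyte precursors alive. The chemokine Cxcl12 binds the G protein-coupled receptor Cxcr4, guides migrating cells and holds stem cells in the bone marrow. Flt3l acts through Flt3 on early lymphoid and myeloid progenitors, Csf1 acts through Csf1r on macrophages, and Il3 acts on myeloid progenitors and mast cells. Interleukin 3 has also been studied as a factor that supports the first stem cells of the aorta region.

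Sequence next to the start sites is shown for the ligand and receptor of the Cxcl12 axis, the pair with the brightest probe sets of the set. The stretches are the 250 bases before the annotated RefSeq start (build GRCm38.p6), printed 5′ to 3′ on the gene's strand, at chr6:117168285-117168534 (plus strand) for Cxcl12 and chr1:128592300-128592549 (minus strand) for Cxcr4. Capitals mark GC boxes (GGGCGG on either strand) and TATA boxes (TATAAA on either strand), and matches that share bases are counted apart.
Cxcl12: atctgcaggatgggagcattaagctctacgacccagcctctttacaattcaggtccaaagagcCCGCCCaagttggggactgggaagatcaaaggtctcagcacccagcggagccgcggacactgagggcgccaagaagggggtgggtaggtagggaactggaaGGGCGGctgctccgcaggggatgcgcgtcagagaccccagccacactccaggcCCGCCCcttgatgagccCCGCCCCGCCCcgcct
Cxcr4: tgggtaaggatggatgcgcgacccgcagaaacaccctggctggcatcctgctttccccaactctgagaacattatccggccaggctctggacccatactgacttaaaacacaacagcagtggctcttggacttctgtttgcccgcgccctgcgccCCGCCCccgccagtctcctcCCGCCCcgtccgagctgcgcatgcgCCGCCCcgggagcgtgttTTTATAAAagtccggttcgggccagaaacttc

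The Cxcl12 stretch held 5 GC boxes and 0 TATA boxes, and the Cxcr4 stretch held 3 GC boxes and 2 TATA boxes, which are the overlapping matches of the same 8 letters on both strands. Promoter stretches of the same length were found for all 8 genes. A GC box was present in 7 of the 8, all but Flt3, against 42.7% of 17492 protein-coding genes and 32.7% of all 32851 RefSeq stretches. A TATA box was present in 2 of the 8, Kitl and Cxcr4, against 12.4% of the protein-coding genes. The ACGTG form of the hypoxia response core, searched on both strands, was in 0 of the 8 and in 17.6% of the protein-coding genes. The GCGTG form was not counted, and the Cxcr4 stretch holds it. The GC content ran from 50.0% for Il3 to 70.8% for Kit, and 6 of the 8 lay above the protein-coding median of 55.2%. These matches describe letters only, and the arrays do not measure binding or promoter activity.

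All members but Cxcl12 lay in the part of the signal range where silent genes also lie. No detection calls were at hand, so the 1365 olfactory and vomeronasal receptor genes, most of which are silent outside sensory tissue, were used to describe the dim end of the arrays. Their mean signals over the 6 arrays had a median of 2.59 and a 95th percentile of 4.66, against a median of 3.24 for all genes. All genes had a 95th percentile of 4.91, and 18.6% of them had a mean above 4. Most genes of the array thus also lay in this part of the range. Of the 8 members, 1 exceeded the 4.66 of the receptor genes. This was Cxcl12, with a mean of 5.64, above 98.3% of those receptor genes and 97.7% of all genes. Cxcr4 followed with 4.37, above 93.0% of the receptor genes. Flt3 (3.69), Kit (3.61) and Flt3l (3.52) were above 84.4%, 83.2% and 80.7% of them, Kitl (3.24) above 73.2%, Csf1 (2.97) above 63.7% and Il3 (2.64) above 51.7%. Probe sets bind with different strength, so these positions do not rank the transcripts. Where a gene lies this low, its signal was not shown to be above background, and a log2 difference can understate a difference in transcript level.

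**Figure D1:**
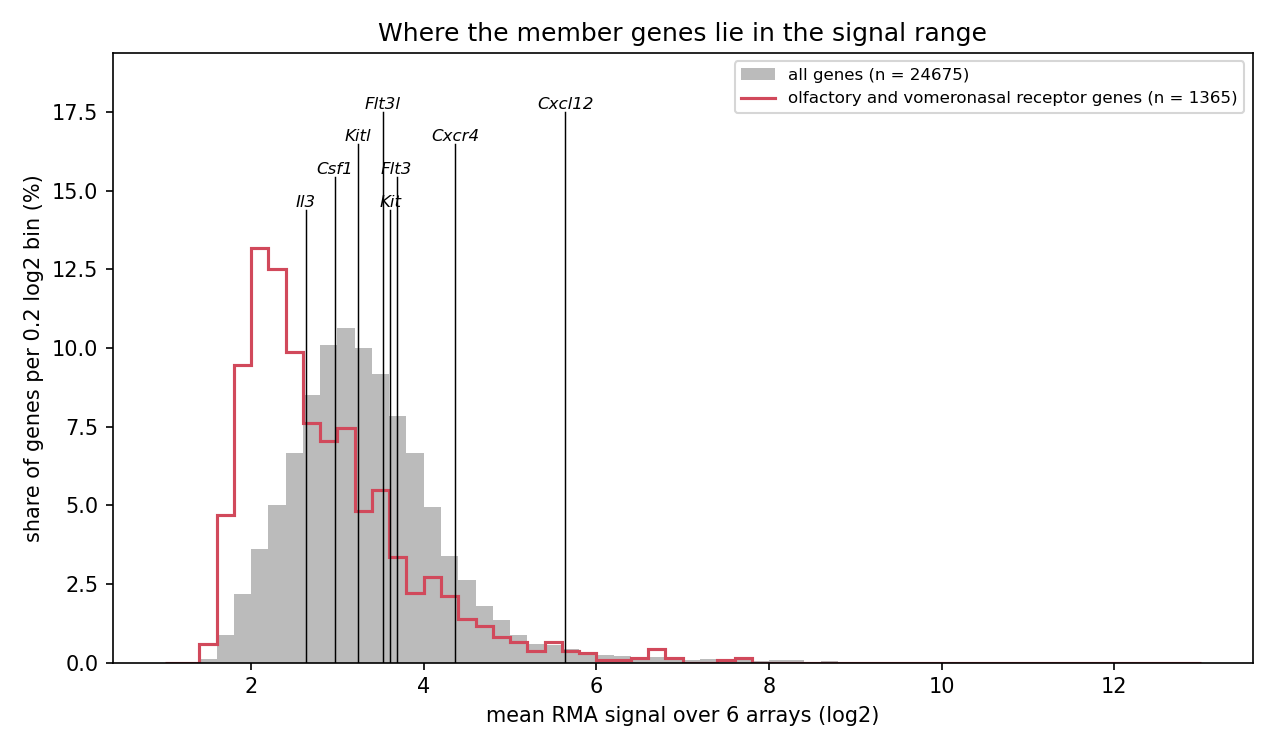
Distribution of mean RMA signal (log2, x axis) over all 24675 genes (grey) and over 1365 olfactory and vomeronasal receptor genes (red outline), as the share of genes per bin (y axis), with a line for each of the 8 member genes. Cxcl12, at 5.64, stands to the right of the bulk of both distributions, and the other 7 members lie between 2.64 and 4.37.

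The question for each member was whether its signal differed between the ventral and the dorsal side. None of the 8 did so past the threshold, an adjusted p of 0.05 in limma with the replicate number as a block and Benjamini-Hochberg adjustment over all genes. The same test called 0 of the 24675 genes (0%), with 2522 (10.2%) at an unadjusted p under 0.05, and 1 gene (0.00405%) without the block, with 2765 (11.2%) at an unadjusted p under 0.05. Among the members 0 of 8 had an unadjusted p under 0.05 with or without the block. The members' adjusted p ran from 0.528 to 0.999, and their median log2 difference, ventral minus dorsal, was -0.0068, beside -0.06 over all genes. With 3 arrays against 3, an exact two-sided permutation test of a single gene cannot go below 0.1.

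Cxcl12, the chemokine that attracts Cxcr4-bearing cells, was the ligand with the largest difference. Its signals were 5.47, 7.47 and 5.31 in dorsal replicates 1, 2 and 3, and 5.04, 5.26 and 5.27 in ventral replicates 1, 2 and 3. Every dorsal array was above every ventral array, but the margin between the lowest dorsal and the highest ventral array was 0.04. The means were 6.08 ± 1.20 and 5.19 ± 0.13 (SD, n = 3 each), a log2 difference of -0.89 ± 0.43 (SE), or a 1.86-fold higher dorsal signal. Its 95% interval ran from -1.95 to 0.16, and the limma adjusted p was 0.528.

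Most of that difference came from 1 array. Dorsal replicate 2 was 2.08 above the mean of the other dorsal arrays, a 4.22-fold higher signal, and without it the log2 difference of Cxcl12 was -0.20 (limma adjusted p = 0.651, fitted without the block). In dorsal replicate 2, 48 genes (0.195%) stood at least as far above both other dorsal arrays as Cxcl12 did, and in the other 5 arrays 44 to 67 genes stood as far above the rest of their group. The sclerotome and notochord markers had their highest mean signal in that array, 4.13 against 3.65 and 3.86 in the other dorsal arrays and 3.58 to 3.69 in the ventral arrays. Of their 6 measured genes 4 were highest there, where 23.1% of all genes were. Of the same 6 genes, 0 had a mean above the 95th percentile of the olfactory and vomeronasal receptor genes. These marker genes were named after their values were seen. Pax1, a sclerotome transcription factor, was at 4.31 against 2.93 to 3.48 elsewhere. Pax9, its relative in the sclerotome, was at 3.73 there and highest in dorsal replicate 1, at 4.48, and Foxc2, a mesenchymal transcription factor, was at 4.07, the lowest of the dorsal arrays (4.56 and 4.16 in the others). The mesenchyme markers had a mean signal of 4.40 in that array and of 3.83 to 4.34 in the others. Only 1 of the 7, Pdgfra, was highest there. The haematopoietic markers also had their highest mean signal in that array, 3.38 against 3.25 to 3.34 in the others, with 2 of 9 highest there. The part of these markers in the Cxcl12 signal was not tested. In cut tissue, fewer cells of a type and less RNA per cell cannot be told apart.

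Kitl, the ligand of Kit, had nearly equal means in the regions within a wide spread. Dorsal signals were 3.27, 3.04 and 3.39, and ventral signals were 2.82, 3.76 and 3.14. The ventral group held both the lowest and the highest array, so the groups overlapped. Its log2 difference was 0.0056 ± 0.27 (SE), with a 95% interval from -0.66 to 0.67 and a limma adjusted p of 0.996. Without ventral replicate 2, the array with the highest Kitl signal, the difference was -0.26, and without ventral replicate 1, the lowest, it was 0.22. It was -0.35 without both arrays numbered 2 and 0.23 without both arrays numbered 1.

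Csf1, the growth factor of macrophages, varied more among the dorsal arrays than between the regions. Its dorsal signals were 2.58, 3.64 and 2.44, and its ventral signals 3.15, 3.14 and 2.88. Dorsal replicate 2 was the highest of all 6 arrays, while the other dorsal arrays were the lowest. The log2 difference was 0.17 ± 0.26 (SE), with a 95% interval from -0.47 to 0.81 and a limma adjusted p of 0.823. Without dorsal replicate 2 it was 0.55, with an adjusted p of 0.347 in limma without the block.

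Il3, a growth factor of myeloid cells, had the dimmest probe set of the members. Dorsal signals were 2.78, 2.65 and 2.96, and ventral signals were 2.48, 2.54 and 2.39. All dorsal arrays lay above all ventral arrays, at a mean signal above only 51.7% of the olfactory and vomeronasal receptor genes. The log2 difference was -0.33 ± 0.18 (SE), with a 95% interval from -0.78 to 0.12 and a limma adjusted p of 0.566. Over all genes, 12.0% had every dorsal array above every ventral array and 6.74% the reverse; among the 8 members these counts were 2 (Cxcl12 and Il3) and 0.

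Flt3l, the ligand of Flt3, had dorsal signals of 3.93, 3.23 and 3.41 and ventral signals of 3.57, 3.31 and 3.70. The groups overlapped, with the highest and the lowest array both dorsal. Flt3l had a log2 difference of 0.0013 ± 0.20 (SE), with a 95% interval from -0.49 to 0.49.

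**Figure D2:**
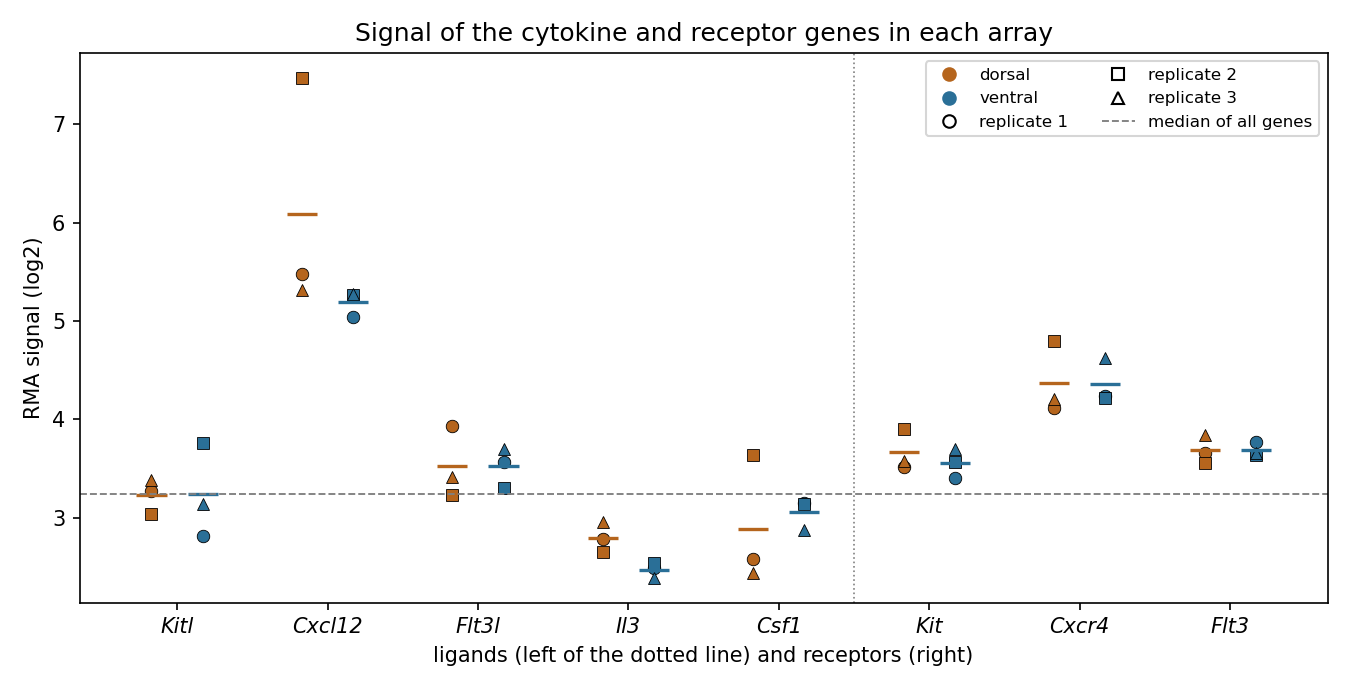
RMA signal (log2, y axis) of each member gene in the 3 dorsal (brown) and 3 ventral (blue) arrays, with the replicate number as the marker shape, bars at the group means and a dashed line at the median of all genes. Cxcl12 in dorsal replicate 2, at 7.47, stands apart from the other 5 arrays at 5.04 to 5.47, and the groups overlap in all members but Cxcl12 and Il3.

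The 3 receptors had log2 differences between -0.11 and -0.0009. Cxcr4, the receptor of Cxcl12, had dorsal signals of 4.11, 4.80 and 4.21 and ventral signals of 4.24, 4.22 and 4.62. One array in each region, dorsal replicate 2 and ventral replicate 3, was above the other 4. Between the regions Cxcr4 had a log2 difference of -0.01 ± 0.24 (SE), with a 95% interval from -0.60 to 0.58 and a limma adjusted p of 0.988, and it became 0.20 without dorsal replicate 2.

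Kit, the receptor of stem cell factor and a surface marker of the aortic haematopoietic clusters, had dorsal signals of 3.52, 3.90 and 3.58. Its ventral signals were 3.41, 3.56 and 3.70. The highest array was dorsal and the lowest ventral, and the groups overlapped. The log2 difference was -0.11 ± 0.18 (SE), with a 95% interval from -0.56 to 0.35 and a limma adjusted p of 0.845.

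Flt3, the receptor tyrosine kinase of multipotent and lymphoid progenitors, had the narrowest spread. Dorsal signals were 3.66, 3.56 and 3.84 and ventral signals 3.77, 3.63 and 3.65, all within the dorsal range. Its log2 difference was -0.0009 ± 0.17 (SE), with a 95% interval from -0.43 to 0.43. For 7 of the 8 members, all but Cxcl12, the 95% interval lay within 1 log2 unit on either side of 0, so a 2-fold difference in signal was outside it. That bound concerns the array signal and holds less for transcripts at these dim levels.

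Dorsal arrays varied more than ventral arrays in 7 of the 8 members, all but Kitl, as in 66.0% of all genes. Dorsal replicate 2 was the highest of the 6 arrays for 4 of the 8 (Cxcl12, Csf1, Cxcr4 and Kit), where it was so for 23.1% of all genes. Its excess over the mean of the other dorsal arrays was 2.08 for Cxcl12, 1.13 for Csf1, 0.64 for Cxcr4 and 0.35 for Kit. The other 4 members were lower in that array than in the other dorsal arrays on average, by 0.44 for Flt3l, 0.28 for Kitl, 0.22 for Il3 and 0.19 for Flt3.

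The partners that complete these pairs were also measured in 8 of 9 cases, and 0 of the 8 passed the threshold in either direction. Ackr3, the scavenger receptor that removes Cxcl12, was at 3.89, 4.70 and 4.64 in dorsal and 4.03, 3.88 and 4.20 in ventral arrays, a log2 difference of -0.37 ± 0.23 (SE). Mif, a cytokine that can also bind Cxcr4, was bright in every array, from 12.1 to 12.3, with a difference of -0.06 ± 0.17. Its receptor subunit Cd74 was at 4.61, 4.61 and 4.55 in dorsal and 4.49, 4.43 and 4.01 in ventral arrays, which did not overlap. The difference of Cd74 was -0.28 ± 0.18, with a limma adjusted p of 0.613.

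Csf1r, the receptor of Csf1, ran from 3.35 to 3.76 in dorsal and from 3.38 to 3.51 in ventral arrays, a log2 difference of -0.15 ± 0.17. Il34, the other ligand of Csf1r, had -0.29 ± 0.17. The 7 measured macrophage markers, of which Csf1r is 1, had mean signals of 3.85 to 4.03 in the dorsal and 3.91 to 4.13 in the ventral arrays, and 4 of the 7 had a positive difference. Cx3cr1, a chemokine receptor of macrophages, was the brightest of them, at 5.71, 6.32 and 6.34 in dorsal and 6.03, 6.49 and 6.98 in ventral arrays.

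Among receptors for interleukin 3, the alpha chain Il3ra had a log2 difference of -0.07 ± 0.23. The beta chains had differences of opposite sign. Csf2rb, the beta chain shared with other cytokines, was at 4.05, 5.10 and 4.46 in dorsal and 4.84, 5.01 and 5.86 in ventral arrays, a log2 difference of 0.70 ± 0.30 (limma adjusted p = 0.500). Csf2rb2, the beta chain specific for interleukin 3 in mice, was at 3.67, 3.77 and 4.03 in dorsal and 3.40, 3.15 and 3.60 in ventral arrays, a difference of -0.44 ± 0.18 (limma adjusted p = 0.488). These neighbouring genes are close copies of each other, so their signals may be shared and each value is uncertain.

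**Figure D3:**
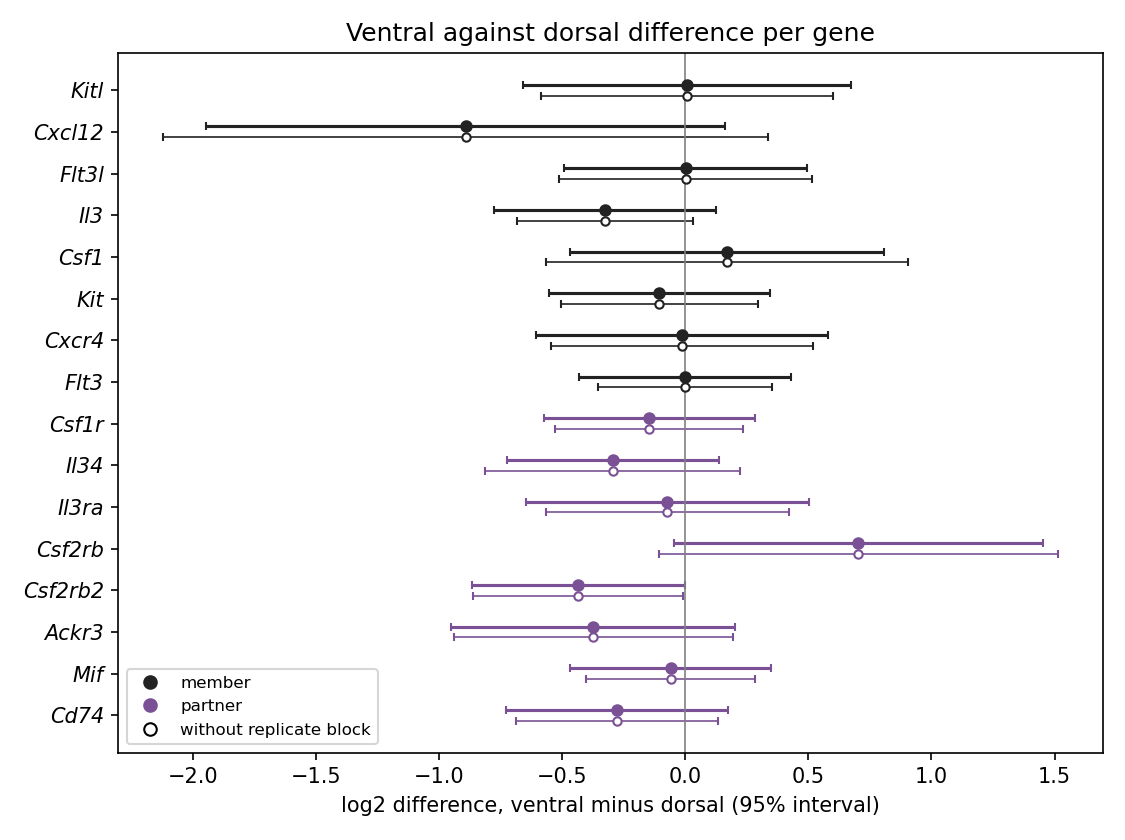
Log2 difference, ventral minus dorsal, with its 95% interval (x axis) for the 8 members (black) and 8 partners (purple), in limma with the replicate block (filled) and without it (open). All member intervals include 0, that of Cxcl12 is the widest, from -1.95 to 0.16, and Csf2rb and Csf2rb2 lie on opposite sides of 0.

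The wider lists of cytokines, chemokines, their receptors, signal transducers and proteases held 97 further measured genes of 104 listed. None passed the threshold. At an unadjusted p under 0.05 there were 7 (7.22%), 1 higher in ventral and 6 higher in dorsal tissue, beside 10.2% of all genes, 4.32% ventral higher and 5.90% dorsal higher. Of the 97, 34 had a positive and 63 a negative difference, and the median was -0.09. The median over all genes was -0.06, so most genes of the array also had a negative difference. By list, the median was -0.10 over 17 other haematopoietic cytokines, -0.06 over 12 other cytokine receptors, -0.13 over 19 other chemokines and -0.09 over 15 other chemokine receptors. It was -0.07 over 29 signal transducers and inhibitors and -0.18 over 5 proteases that cut these ligands and receptors.

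The smallest p of these lists belonged to Stat5a, a transcription factor that carries signals of Kit, Il3 and thrombopoietin receptors. Stat5a was at 4.13, 3.58 and 3.99 in dorsal and 5.05, 4.72 and 4.50 in ventral arrays. All ventral arrays were above all dorsal arrays, with a log2 difference of 0.86 ± 0.20 (SE) and a limma adjusted p of 0.429. Its neighbour and close relative Stat5b had -0.44 ± 0.19, with dorsal arrays at 2.60 to 3.06 and ventral arrays at 2.38 to 2.51, and was named after its value was seen. Cytokine signalling is restrained by Socs3, a feedback inhibitor, which was at 4.12, 4.17 and 3.61 in dorsal and 3.55, 3.52 and 3.35 in ventral arrays, a difference of -0.50 ± 0.18. The lymphoid growth factor Il7 had -0.55 ± 0.20, at means of 3.33 ± 0.26 for dorsal and 2.78 ± 0.09 for ventral arrays (SD, n = 3 each). The chemokine receptors Ccr2, of monocytes, and Cxcr5, of B cells, had -0.63 ± 0.21 and -0.50 ± 0.17. Mean signals of Ccr2, Il7, Cxcr5, Socs3 and Stat5a were above 57.7%, 66.8%, 72.1%, 85.1% and 92.3% of the olfactory and vomeronasal receptor genes. These means lay below the 95th percentile of the receptor genes. Of the 29 signal transducers and inhibitors, which include Stat5a, Stat5b and Socs3, 0 exceeded it. All these genes were thus not shown to be above background. Ctf1, the cytokine cardiotrophin of the interleukin 6 family, had the brightest probe set of these 6 genes named for their p, with means of 5.48 ± 0.20 for dorsal and 5.02 ± 0.33 for ventral arrays (SD, n = 3 each). The limma adjusted p of these 6 lay between 0.429 and 0.480.

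**Figure D4:**
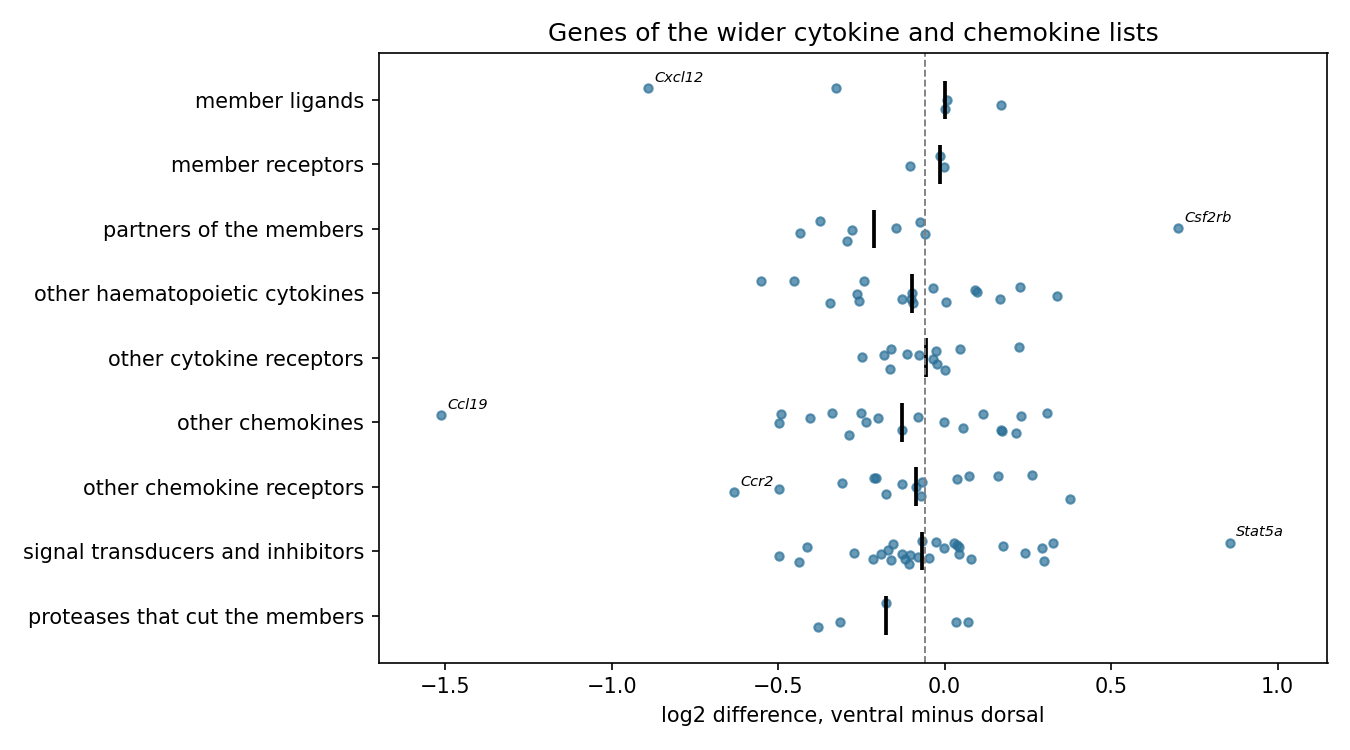
Log2 difference, ventral minus dorsal (x axis), of each measured gene of the 9 lists (rows), with a black bar at each list's median and a dashed line at the median of all genes, -0.06. Points beyond 0.6 on either side are named, and 6 of the 9 lists have their median left of the dashed line.

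Endothelial, haematopoietic and germ cell markers, of cell types that can carry these receptors, were dim. Of the 10 endothelial markers 0, of the 9 haematopoietic markers 0 and of the 6 germ cell markers 0 exceeded the 95th percentile of the olfactory and vomeronasal receptor genes. Most genes of the array did not exceed it either, since 4.49% of all genes had a mean above 5 and 18.6% above 4. The endothelial markers had mean signals of 3.30 to 3.46 in the dorsal and 3.18 to 3.40 in the ventral arrays. For the haematopoietic markers the ranges were 3.30 to 3.38 and 3.25 to 3.34, with Runx1, the transcription factor required for the first blood stem cells, at 3.49 ± 0.36 and 3.32 ± 0.30 (SD, n = 3 each). Germ cell markers, whose cells carry Kit, had mean signals of 3.24 to 3.41 in dorsal and 3.00 to 3.45 in ventral arrays. The ranges of these list means overlapped between the 2 groups for all 3 lists. By gene, 1 endothelial, 1 haematopoietic and 0 germ cell markers had every dorsal array above every ventral array, beside 12.0% of all genes. The endothelial gene was Plvap, with a log2 difference of -0.996 ± 0.20 (SE) and a limma adjusted p of 0.384. Spi1, the haematopoietic gene, had -0.34 ± 0.19 and a limma adjusted p of 0.565. Erythroid markers were bright by comparison, with 4 of 6, all globins, above that percentile. Their mean signals were 7.08, 6.98 and 8.35 in dorsal and 5.88, 7.53 and 8.77 in ventral arrays, so they varied widely within each region and the groups overlapped. Of the 7 macrophage markers 1, Cx3cr1, was above that percentile.

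The genes whose profile over the 6 arrays was most like that of Cxcl12 were Dlgap4 (Pearson r = 0.995), Lrrc27 (0.988) and Mypop (0.987), out of 3627 genes with a mean of 4 or more. Without dorsal replicate 2 these became 0.799, 0.796 and 0.949 over 5 arrays. For Cxcr4 they were Chrm4 (0.977), Tyw5 (0.972) and Igsf5 (0.971), and 0.984, 0.932 and 0.974 without that array. The points share their arrays, and so large a search returns high values among so few arrays, so these are descriptions only.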

How the data were processed

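The values are those of 6 arrays, 3 dorsal and 3 ventral. The deposited values are log2 RMA signals per probe set, and the authors used Affymetrix Expression Console and RMA, per the submitters' processing notes, which give no versions. RMA corrects background, equalises the arrays' distributions and summarises probes. The log base was read from the values, and the sources used here name no genome build. Of 25429 probe sets, 24675 had 1 gene symbol, 0 had several and 754 had none. Each gene had 1 probe set, and 0 pairs of arrays were identical. All 24675 genes were tested in limma 3.58.1 (R 4.3.3; lmFit, eBayes, two-sided, Benjamini-Hochberg) without a filter on dim genes, with the replicate number as a block, since both regions came from the same embryos. No label says that equal numbers mean the same embryo. P-values cover the spread among these arrays, and the number of arrays limits the precision. The procedure was also run on simulated data with planted differences larger than any member's and no replicate effect. That run does not show whether differences of the members' size could be found.

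The members and lists were chosen with earlier results of these data known. Named genes were all members and partners, the 6 other pathway genes with the smallest p, and the 3 genes most like each of the 2 members with the highest mean. The marker genes named were Runx1, Cx3cr1, Plvap, Spi1, Pax1, Pax9, Foxc2 and Pdgfra. Along with Stat5b, Ccl19 and Cxcl13, they fall outside this rule and were picked after their values were seen. Predicted, olfactory, vomeronasal and small RNA genes were left out of the last search. Sequences are from RefSeq (GRCm38.p6). Alternatives were no block, cyclic loess, median centring, filters on dim genes, an intensity trend, array weights and left-out arrays.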

Additional observations from a re-analysis of the deposited data

How the results depend on the processing

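Under 16 alternatives 0 members and 0 genes of the wider lists were called, and the lowest adjusted p of a member in limma was 0.347. Over all genes, 0 were called with the block and 1 with no replicate block, and leaving out arrays gave 0 to 5. Between arrays of the same number, deviations from the group means over all genes correlated at 0.04, -0.01 and 0.06 (numbers 1, 2 and 3). This measure thus does not show that the numbers pair the samples. The erythroid markers had their highest mean signal in replicate 3 of both regions, 8.35 in dorsal and 8.77 in ventral tissue. Whether this reflects pairing was not tested. Dropping the replicate block changed no member's call. The members' median difference ranged from -0.17 (without replicate 3) to -0.03 when arrays were left out.

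Cxcl12 and Il3 kept a negative sign in every alternative in which they were fitted, and Cxcl12 ranged from -1.32 to -0.20 when arrays were left out. Il3 was absent from both fits that left out dim genes, and Kitl and Csf1 from the stricter one. Signs near 0 were not stable. With array weights the differences were -0.025 for Kitl, -0.012 for Flt3l, 0.0041 for Cxcr4 and 0.0011 for Flt3. Median centring gave 0.031 for Cxcr4 and 0.043 for Flt3, and cyclic loess 0.015 for Flt3. When arrays were left out, the ranges were -0.35 to 0.23 for Kitl, -0.14 to 0.20 for Flt3l, -0.053 to 0.55 for Csf1, -0.22 to 0.011 for Kit, -0.23 to 0.27 for Cxcr4 and -0.065 to 0.093 for Flt3. The cause of these changes was not tested. For 7 of the 8 members the signal was not shown to be above background, which limits what they can show.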

Other observations

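The chemokine with the largest difference in the wider lists, picked after its values were seen, was Ccl19, a ligand of Ccr7 that guides lymphocytes and dendritic cells. Ccl19 was at 6.38, 4.01 and 4.70 in dorsal replicates 1, 2 and 3 and at 2.95, 4.34 and 3.26 in the ventral replicates, a log2 difference of -1.51 ± 0.66 (SE, limma adjusted p = 0.506). The groups overlapped, with dorsal replicate 2 below ventral replicate 2. Cxcl13, a chemokine of B cells, had -0.50 ± 0.19, with dorsal arrays at 4.81 to 5.02 and ventral arrays at 4.25 to 4.82.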
